A study of Homo sapiens with 6 samples.

Results

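LITAF and 7 genes of its known protein partners were followed across 6 RNA-seq libraries of the human colorectal cancer cell line HT-29. The 8 members were LITAF, its relative CDIP1, the ubiquitin ligases NEDD4 and ITCH, the WW domain protein WWOX, and the endosomal sorting proteins TSG101, STAM and HGS. LITAF was chosen by its measured RNA level, which was lower in both knockdowns (KDs) of these data, so its values are described here and not tested. The other members were picked for their link to LITAF. All 8 were found by Entrez gene identifier among the 27434 rows of each file, and 7 had enough counts to test, out of 13034 genes tested in all.

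The libraries came from HT-29 cells transfected for 48 hours with a non-targeting siRNA pool (siNT), a pool against the lncRNA HOXA-AS3 (siHOXA-AS3) or a pool against the lncRNA HOXB-AS3 (siHOXB-AS3), with 2 libraries per group. The labels give a dose of 10 nM and the methods of the study a higher one. All groups thus carried a transfected siRNA pool, and no untransfected cells were sequenced. The labels number the replicates but do not say that they were separate transfections, so p-values measure only the spread between these libraries.

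LITAF is a small membrane protein of late endosomes and lysosomes, named for its induction by lipopolysaccharide and its proposed role in TNF expression, and mutated in a form of Charcot-Marie-Tooth neuropathy. Short proline-rich motifs in its N-terminal part bind the WW domains of NEDD4-family ligases and of WWOX, and bind TSG101. HGS and STAM form ESCRT-0, which captures ubiquitinated membrane proteins on endosomes and passes them to ESCRT-I, of which TSG101 is a subunit. The later complexes ESCRT-II and ESCRT-III sort the cargo into vesicles inside the endosome for breakdown in the lysosome.

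Total expected counts ranged from 15998518 to 26263938 per library. The targeted RNAs were lower in their own KD. HOXA-AS3 had few counts, with 38 and 18 in siNT, 12 and 12 in siHOXA-AS3, and 30 and 22 in siHOXB-AS3. HOXB-AS3 had 303 and 213 counts in siNT, 263 and 208 in siHOXA-AS3, and 67 and 76 in siHOXB-AS3. The log2 fold change of HOXA-AS3 in its KD was -1.09 (SE 0.40, adjusted p = 0.71) and that of HOXB-AS3 was -1.96 (SE 0.25, adjusted p = 0.0678, edgeR's quasi-likelihood test). Both lncRNAs overlap HOX genes on the other strand. The strand setting of the counting is not given in the sources used here, so the lncRNA counts may include reads of those genes. The siHOXA-AS3 libraries differed most from each other, with an SD of log2 differences over genes of 0.73 against 0.42 in siNT and 0.37 in siHOXB-AS3. That difference followed the GC content of the genes (r = 0.72 across genes, which are not independent replicates). All 8 colon epithelial markers had a mean FPKM (fragments scaled by gene length and library size) of 1 or more, while none of the 6 markers of blood, endothelium or fibroblasts did. The summed FPKM of the latter was 0.10 to 0.18 in every group, and COL1A2 had no count. The summed FPKM of the colon markers was 4403 to 4743 in siNT, 3772 to 5631 in siHOXA-AS3 and 4171 to 4191 in siHOXB-AS3. KRT18 and LGALS4 were the largest parts of that sum, with a mean FPKM of 2196 and 1171, against 8.29 for CDH17. The sum thus says little about the weaker markers.

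LITAF RNA stood at 52.9% of its siNT level after HOXA-AS3 KD and at 25.1% after HOXB-AS3 KD, by the mean FPKM. It had 4729 and 2886 expected counts in siNT, 2375 and 1521 in siHOXA-AS3, and 1104 and 1007 in siHOXB-AS3. In CPM, which are counts scaled by library size after TMM normalization, this was 177 and 178 in siNT, 100.3 and 88.9 in siHOXA-AS3, and 45.4 and 47.1 in siHOXB-AS3. The groups did not overlap, and the 2 libraries of each group were closer to each other than to any library of another group. The siHOXA-AS3 libraries held 56.4% and 50.02% of the siNT mean CPM, and the siHOXB-AS3 libraries 25.5% and 26.5%.

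The log2 fold change of LITAF was -0.91 in siHOXA-AS3 and -1.94 in siHOXB-AS3, each against the same siNT libraries. Counted from the lowest value among the 13034 genes tested, these were places 215 and 62. LITAF in siHOXB-AS3 was also below siHOXA-AS3, by a log2 fold change of -1.03. Because LITAF was chosen for these values, nothing is read from them beyond the description. As background, 16.1% of the genes tested had both siHOXA-AS3 libraries below both siNT libraries, and 30.9% had both siHOXB-AS3 libraries below both siNT libraries. For siHOXB-AS3 below siHOXA-AS3 the share was 22.5%. Over the 8 colon epithelial markers the median log2 fold change was 0.18 in siHOXA-AS3 and -0.26 in siHOXB-AS3. In the 6-library model 0 of the 8 passed against siNT (edgeR). DESeq2 called CDH17 higher in siHOXA-AS3 (adjusted p = 0.0439) and EPCAM lower in siHOXB-AS3 (adjusted p = 0.01), beside 0.391% and 2.71% of all genes called. In the edgeR model of only siNT and siHOXB-AS3, 3 of the 8 were called lower in siHOXB-AS3 and 0 higher. Of all 12830 genes there, 1554 were called lower and 1441 higher, 23.3% in either direction. The 3 were EPCAM (adjusted p = 8.88e-07), CDH1 (adjusted p = 0.000477) and LGALS4 (adjusted p = 0.00173). By overlap alone, 5 of the 8 lay below siNT in siHOXB-AS3 and 2 above, beside 30.9% of all genes each way. The 2 above were KRT8 and KRT18, at log2 fold changes of 0.20 and 0.14. EPCAM and CDH17 were lower in siHOXB-AS3 than in siHOXA-AS3 in the 6-library model (log2 fold changes -0.82 and -1.32, adjusted p = 0.0471 and 0.041, edgeR). That comparison called 1.57% of all genes. In the model of only the KD libraries EPCAM and CDH17 were not called (adjusted p = 0.18 and 0.14, edgeR). The single markers were named after their values were seen, and their part in the LITAF values was not tested. HT-29 cells were profiled in bulk, so fewer cells with LITAF and less LITAF RNA per cell cannot be told apart.

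**Figure D1:**
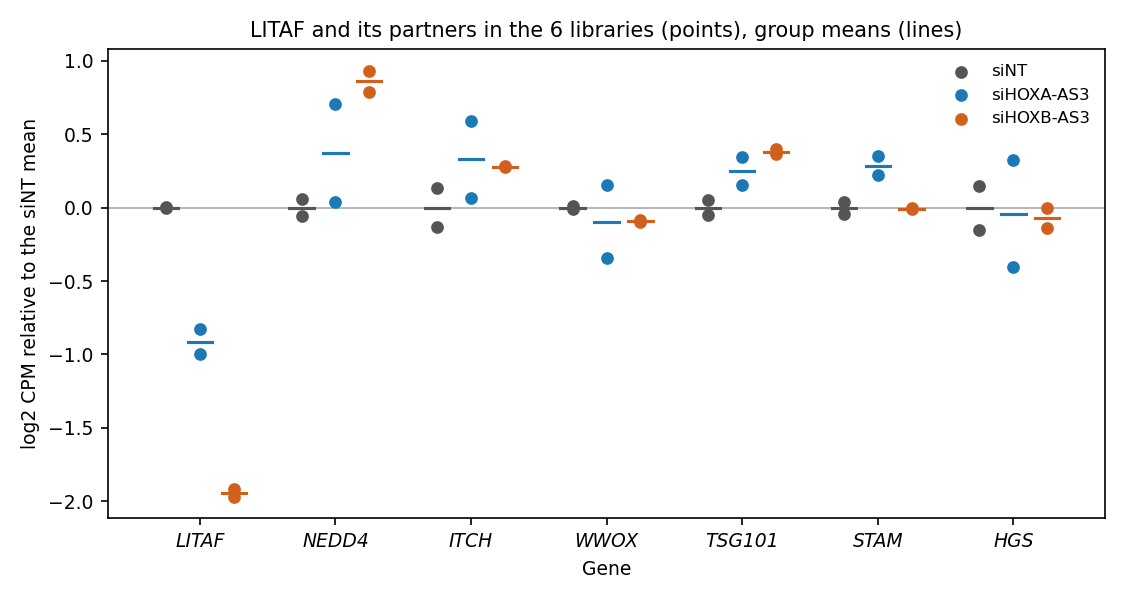
Difference in log2 CPM from the siNT mean (vertical axis) of the 7 members with enough counts, with a point for each library and a line for each group mean. LITAF lies below siNT in all 4 KD libraries and lowest in siHOXB-AS3, at -1.97 and -1.92, while NEDD4 lies at 0.79 and 0.93 in siHOXB-AS3.

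LITAF (Entrez 9516) lies on the minus strand of chromosome 16, at chr16:11547722-11636381 in GRCh38 (GENCODE v29), and none of its exons overlap another annotated gene. The deposited files were made on hg19 per the submitters' processing notes, so positions here serve only to place the genes. An siRNA acts through its guide strand, and bases 2 to 8 of a guide, its seed, can also pair with other transcripts. The sequences below are the guides of both pools that match the target lncRNA, with the seed in capitals, shown because all LITAF values rest on these reagents. The siHOXA-AS3 guides were derived as the reverse complements of the listed sense strands.

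siHOXA-AS3 guide 1: uUGUUCGCuauucugucuc
siHOXA-AS3 guide 2: uUGUUCGGcccuuccauug
siHOXA-AS3 guide 3: aGCUUCGCuguccuuuccu
siHOXA-AS3 guide 4: uAACGAGUgcccugucuac
siHOXB-AS3 guide 1: aCUUUGUCucccuuugucg
siHOXB-AS3 guide 2: uUUCUUUCaugcccgacuc
siHOXB-AS3 guide 3: uUUCCCUUcaccccuugac

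The letters complementary to each seed were searched on the transcript strand of the 3′ UTR of LITAF, 1911 bases long in GENCODE v29. The 4 siHOXA-AS3 motifs were GCGAACA for guide 1, CCGAACA for guide 2, GCGAAGC for guide 3 and ACTCGTT for guide 4. The 3 siHOXB-AS3 motifs were GACAAAG for guide 1, GAAAGAA for guide 2 and AAGGGAA for guide 3. The UTR held 1 match to a siHOXA-AS3 motif and 3 matches to siHOXB-AS3 motifs. They are shown with the match in capitals, since LITAF was lower in both KDs.

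LITAF, siHOXA-AS3 guide 1, chr16:11548158-11548164: gaccttgaGCGAACAtctgtata
LITAF, siHOXB-AS3 guide 1, chr16:11549152-11549158: tccctgatGACAAAGatcttgcc
LITAF, siHOXB-AS3 guide 1, chr16:11548260-11548266: gaagtcaaGACAAAGctgggctc
LITAF, siHOXB-AS3 guide 3, chr16:11548457-11548463: tgaaagatAAGGGAAagcacatt

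The 4 matches begin 1473, 479, 1371 and 1174 bases after the stop codon, in the order shown, and all lie on the minus strand of GRCh38. Among 1545 genes tested with a 3′ UTR within 20% of the length of that of LITAF, 4.79% held at least 1 match to a siHOXA-AS3 motif. At least 1 match to a siHOXB-AS3 motif was found in 49.1% of them and at least 3 matches in 4.40%. Among the partners, STAM held 2 siHOXB-AS3 matches, NEDD4 and WWOX held 1 each, and CDIP1, ITCH, TSG101 and HGS held 0. No partner held a siHOXA-AS3 match. Over all 10943 3′ UTRs of genes tested, 38.7% held at least 1 siHOXB-AS3 match and 5.21% at least 1 siHOXA-AS3 match. The 3′ UTRs of the partners ran from 235 bases in TSG101 to 3599 in ITCH, so their counts are not compared with that of LITAF. A match is a run of letters and not a measured site of action, and its part in the LITAF values was not tested.

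CDIP1 (Entrez 29965), the nearest relative of LITAF and a mediator of p53-dependent cell death, was not detected. It had 0 counts in all 6 libraries. At 3 counts per library, a count of 0 allows an FPKM of up to 0.045 in the deepest library and up to 0.0737 in the shallowest, for counting error only. Its neighbours on chromosome 16 were counted, with 300 to 524 expected counts per library for HMOX2 and 274 to 650 for UBALD1. No fold change was computed for CDIP1.

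In FPKM, which allows levels to be compared between genes, TSG101 and LITAF were the most abundant members in siNT and WWOX the least abundant detected one. TSG101 stood at 83.5 ± 4.5 FPKM in siNT (SD, n = 2) and LITAF at 76.6 ± 0.0071, so that LITAF reached 91.9% of the level of TSG101. ITCH followed at 18.3 ± 2.5 FPKM, HGS at 12.1 ± 1.7, STAM at 11.1 ± 0.53, NEDD4 at 8.74 ± 0.57 and WWOX at 0.85 ± 0.085. HGS and STAM overlapped in their ranges and do not differ beyond their spread in siNT, and each other neighbour in this order was apart.

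The order of the members differed between the groups. In siHOXA-AS3, LITAF stayed in place 2 at 40.5 ± 3.6 FPKM, above ITCH at 23.1 ± 5.8, and STAM came before HGS, but the ranges of STAM, HGS and NEDD4 overlapped from one to the next. In siHOXB-AS3, LITAF at 19.3 ± 0.45 FPKM lay below ITCH at 21.4 ± 0.11, and NEDD4 at 15.2 ± 0.99 lay above HGS at 11.1 ± 0.80 and STAM at 10.8 ± 0.057. LITAF thus went from place 2 to place 3 and NEDD4 from place 6 to place 4 among the members. Each of these neighbours in siHOXB-AS3 was apart except HGS and STAM.

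**Figure D2:**
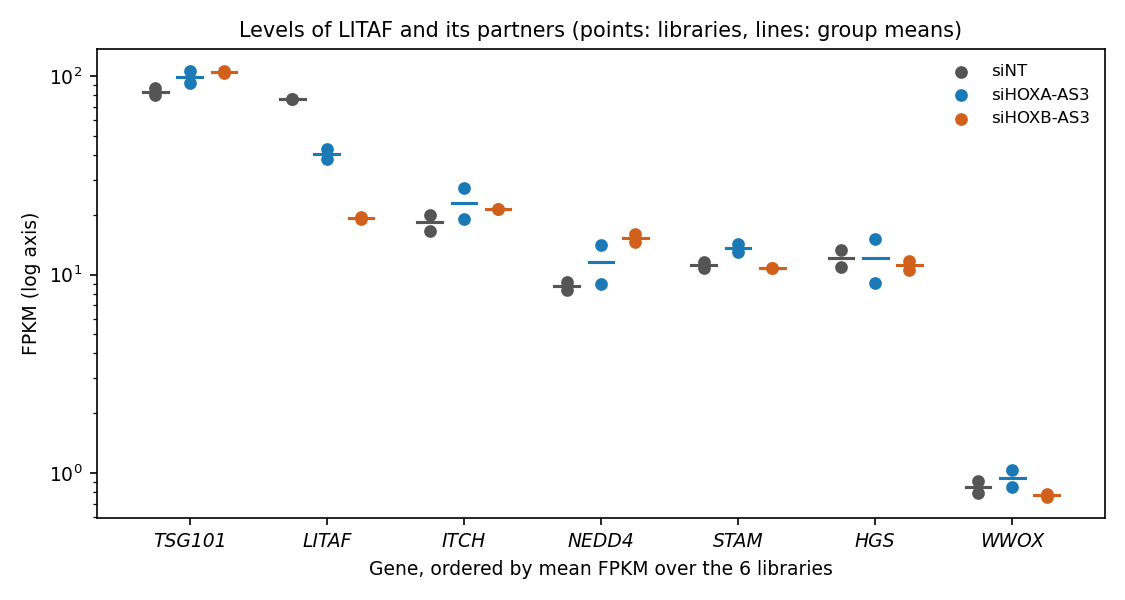
FPKM on a log axis for the 7 detected members, ordered by their mean over the 6 libraries, with a point for each library and a line for each group mean. LITAF runs from 76.6 in siNT to 18.9 and 19.6 in siHOXB-AS3, where it meets ITCH, while TSG101 stays between 80.3 and 106.7 in all libraries.

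None of the 6 partners tested passed the test in any comparison of the 6-library model. In HOXA-AS3 KD, 0 of 6 passed at an adjusted p under 0.05 (quasi-likelihood test of edgeR, Benjamini-Hochberg), 0 had an unadjusted p under 0.05, and DESeq2 called 0. The background was 0% of the 13034 genes called by edgeR, 6.16% at an unadjusted p under 0.05 and 0.391% called by DESeq2. In HOXB-AS3 KD, 0 of 6 passed, 2 had an unadjusted p under 0.05 (NEDD4 and TSG101) and DESeq2 called 1 (NEDD4), against a background of 0.0614% called by edgeR, 12.2% at an unadjusted p under 0.05 and 2.71% called by DESeq2. Between the KDs 0 of 6 passed, 0 had an unadjusted p under 0.05 and DESeq2 called 0, against 1.57%, 18.4% and 6.14% of all genes. The median log2 fold change of the 6 partners was 0.27 in siHOXA-AS3 and 0.13 in siHOXB-AS3, beside 0.01 and -0.01 over all genes tested.

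NEDD4 (Entrez 4734), the founding HECT ligase of its family, had the highest fold change of the partners in both KDs. Its CPM was 52.4 and 48.2 in siNT, 51.5 and 81.9 in siHOXA-AS3, and 86.9 and 96.1 in siHOXB-AS3. Both siHOXB-AS3 libraries lay above all others, as did those of 30.9% of all genes against siNT and 22.8% against siHOXA-AS3, and the siHOXA-AS3 libraries were split, with 1 at the siNT level. NEDD4 had a log2 fold change of 0.86 in siHOXB-AS3 (SE 0.25, 95% confidence interval 0.28 to 1.45, adjusted p = 0.22, edgeR) and 0.41 in siHOXA-AS3 (SE 0.25, -0.18 to 0.99, adjusted p = 0.92).

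The call of NEDD4 depended on how the spread was estimated. When the model held only the siNT and siHOXB-AS3 libraries, edgeR gave NEDD4 a log2 fold change of 0.86 (SE 0.11, adjusted p = 8.31e-06), while 23.3% of 12830 genes were called. DESeq2 gave NEDD4 an adjusted p of 0.049. With the trend on GC content removed, edgeR called NEDD4 higher in siHOXB-AS3 than in siNT (adjusted p = 0.00193) and than in siHOXA-AS3 (adjusted p = 0.00504), while 15.3% and 26.2% of all genes were called.

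ITCH (Entrez 83737), a HECT ligase of the same family, was within the spread in both KDs. Its CPM was 132 and 109 in siNT, 125 and 181 in siHOXA-AS3, and 146 and 145 in siHOXB-AS3. The siHOXB-AS3 libraries lay just above siNT, as did those of 30.9% of all genes, and the siHOXA-AS3 libraries overlapped siNT. Against siNT the log2 fold change was 0.35 (SE 0.21, adjusted p = 0.93, edgeR) in siHOXA-AS3 and 0.27 (SE 0.21, adjusted p = 0.68) in siHOXB-AS3.

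WWOX (Entrez 51741), an oxidoreductase with WW domains known as a tumour suppressor, was near the limit of detection. It had 22 to 44 counts per library, and its CPM was 1.65 and 1.67 in siNT, 1.86 and 1.29 in siHOXA-AS3, and 1.56 and 1.54 in siHOXB-AS3. The log2 fold changes were -0.06 (95% confidence interval -0.84 to 0.71) in siHOXA-AS3 and -0.09 (-0.87 to 0.68) in siHOXB-AS3. These intervals leave room for changes in either direction, so a difference was not detectable at this depth.

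TSG101 (Entrez 7251), the ESCRT-I subunit that binds LITAF, had a higher mean in both KDs. Its CPM was 122 and 114 in siNT, 131 and 149 in siHOXA-AS3, and 155 and 151 in siHOXB-AS3. Both KDs lay above siNT without overlap, as did 12.5% of all genes in siHOXA-AS3 and 30.9% in siHOXB-AS3. The log2 fold change was 0.25 (SE 0.16, adjusted p = 0.93, edgeR) in siHOXA-AS3 and 0.38 (SE 0.16, adjusted p = 0.39) in siHOXB-AS3. In the model of only siNT and siHOXB-AS3, edgeR called TSG101 higher (log2 fold change 0.38, SE 0.09, adjusted p = 0.00614), and with the GC trend removed the adjusted p was 0.0143. Those fits called 23.3% and 15.3% of all genes. Exons of TSG101 share 174 bases with a gene on the opposite strand and 126 with one on the same strand.

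STAM (Entrez 8027), a subunit of ESCRT-0, had its highest CPM in the siHOXA-AS3 libraries. Its CPM was 41.4 and 39.1 in siNT, 46.9 and 51.3 in siHOXA-AS3, and 40.1 and 40.0 in siHOXB-AS3. STAM had log2 fold changes of 0.29 (SE 0.17, adjusted p = 0.92, edgeR) in siHOXA-AS3 and -0.01 (SE 0.17, adjusted p = 0.99) in siHOXB-AS3. Between the KDs the log2 fold change was -0.29 (SE 0.17, adjusted p = 0.42).

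HGS (Entrez 9146), the partner of STAM in ESCRT-0, varied more between the siHOXA-AS3 libraries than between groups. Its CPM was 30.6 and 37.7 in siNT, 42.6 and 25.7 in siHOXA-AS3, and 33.9 and 30.8 in siHOXB-AS3. The groups overlapped in every comparison. HGS had log2 fold changes of 0.00 (95% confidence interval -0.65 to 0.65) in siHOXA-AS3 and -0.08 (-0.73 to 0.57) in siHOXB-AS3. Exons of HGS share 1938 of 8254 bases with genes on the opposite strand, ARL16 among them, so its counts may include reads of those genes.

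Leaving out either siHOXA-AS3 library changed calls of the members. Without siHOXA-AS3 replicate 1, edgeR called NEDD4 (log2 fold change 0.70, adjusted p = 0.000558), ITCH (0.58, adjusted p = 0.00136) and TSG101 (0.34, adjusted p = 0.0284) higher in HOXA-AS3 KD, and ITCH lower in siHOXB-AS3 than in siHOXA-AS3 (-0.31, adjusted p = 0.0482). Without siHOXA-AS3 replicate 2, the log2 fold changes of NEDD4, ITCH and TSG101 in HOXA-AS3 KD were 0.0389, 0.0623 and 0.16, with none called, and edgeR called NEDD4 higher (0.82, adjusted p = 5.8e-05) and HGS lower (-0.40, adjusted p = 0.0466) in siHOXB-AS3 than in siHOXA-AS3. In HOXB-AS3 KD against siNT, edgeR called NEDD4 higher without siHOXA-AS3 replicate 1 or 2 (0.86 in both, adjusted p = 3.62e-06 and 3.21e-06), and TSG101 too (0.38 in both, adjusted p = 0.00544 and 0.00479), while 22.7% and 22.6% of all genes were called. Elsewhere, 30.3% of all genes were called in HOXA-AS3 KD and 37.8% between the KDs without replicate 1, and 36% between the KDs without replicate 2. The remaining siHOXA-AS3 library was assumed to vary like the others in these fits.

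The wider NEDD4 family and its adaptors numbered 11 genes, of which 9 were tested, HECW1 and HECW2 having too few counts. In the 6-library model 0 of 9 passed in each comparison (edgeR), with 2 of 9 at an unadjusted p under 0.05 in siHOXA-AS3, 1 in siHOXB-AS3 and 2 between the KDs, beside 6.16%, 12.2% and 18.4% of all genes. DESeq2 called 0, 1 and 1 of them, beside 0.391%, 2.71% and 6.14%. The median log2 fold change was 0.09 in siHOXA-AS3 and 0.27 in siHOXB-AS3. NEDD4L, a ligase known for the epithelial sodium channel, had a CPM of 212 and 219 in siNT, 148 and 157 in siHOXA-AS3, and 262 and 265 in siHOXB-AS3.

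NEDD4L was thus below siNT in HOXA-AS3 KD (log2 fold change -0.50, SE 0.14, adjusted p = 0.61, edgeR) and above it in HOXB-AS3 KD (0.29, SE 0.14, adjusted p = 0.49). Of all genes, 16.1% lay below siNT without overlap in siHOXA-AS3, and 30.9% lay above it in siHOXB-AS3. The difference between the KDs was 0.79 (SE 0.14, adjusted p = 0.0517, edgeR). DESeq2 (adjusted p = 0.00747) and edgeR with the GC trend removed (adjusted p = 0.00156) called NEDD4L higher in siHOXB-AS3 than in siHOXA-AS3. Those fits called 6.14% and 26.2% of all genes. With only the KD libraries in the model the adjusted p of NEDD4L was 0.205 (edgeR). SMURF1, a ligase of BMP and TGF-beta signalling, had the same signs as NEDD4L against siNT, at -0.34 and 0.25. WWP1 was at -0.69 (SE 0.28, adjusted p = 0.76, edgeR) and -0.12, with both siHOXA-AS3 libraries below both siNT libraries. WWP2 was at 0.09 and 0.46, and SMURF2 at 0.33 and -0.10. The adaptors NDFIP1 and NDFIP2, membrane proteins that recruit these ligases, were at 0.37 and -0.09 and at 0.03 and 0.36. In the model of only siNT and siHOXB-AS3, edgeR called 4 of these 9 genes higher (NEDD4, NEDD4L, WWP2 and NDFIP2), against 11.2% of all genes. With the GC trend removed, edgeR called 2 of the 9 lower in siHOXA-AS3 against siNT, NEDD4L (adjusted p = 0.0495) and WWP1 (adjusted p = 0.01). Of all 13034 genes, 226 were called lower there and 199 higher. That fit called 3 of the 9 higher in siHOXB-AS3 against siNT, beside 15.3% of all genes. Between the KDs it called 5 higher and 1 lower, beside 26.2%.

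The ESCRT machinery was measured through 30 of 34 genes, and 0 of the 30 passed in any comparison of the 6-library model (edgeR). An unadjusted p under 0.05 was reached by 2 in siHOXA-AS3, 4 in siHOXB-AS3 and 2 between the KDs, beside 6.16%, 12.2% and 18.4% of all genes. DESeq2 called 0, 0 and 1 of the 30, beside 0.391%, 2.71% and 6.14%, the last being VPS36. The median log2 fold change of the 30 genes was 0.05 in siHOXA-AS3 and 0.08 in siHOXB-AS3. In ESCRT-0, STAM2 was at -0.26 and -0.02. In ESCRT-I, VPS28 was at 0.24 and -0.06, VPS37A at 0.24 and 0.02, VPS37B at -0.36 and -0.18, VPS37C at -0.03 and 0.06, and UBAP1 at -0.01 and 0.24.

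In ESCRT-II, VPS36, a subunit that binds ubiquitin, had a CPM of 38.9 and 29.2 in siNT, 41.9 and 70.1 in siHOXA-AS3, and 27.5 and 30.3 in siHOXB-AS3. Its log2 fold change was 0.71 (SE 0.29, adjusted p = 0.76, edgeR) in siHOXA-AS3 and -0.24 (SE 0.29, adjusted p = 0.81) in siHOXB-AS3, and between the KDs it was -0.95 (adjusted p = 0.15 in edgeR and 0.0253 in DESeq2). SNF8 was at -0.06 in both KDs and VPS25 at 0.03 and 0.01, and no difference between these genes was tested. In ESCRT-III, CHMP2B had the highest values, at 0.47 and 0.52. CHMP5 was the lowest in HOXB-AS3 KD, at -0.56 (SE 0.22, adjusted p = 0.37, edgeR), and CHMP6 and CHMP7 were the lowest in HOXA-AS3 KD, at -0.21 and -0.18.

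CHMP1B was at 0.24 in siHOXA-AS3, and in siHOXB-AS3 CHMP2A was at 0.30 and VPS4B, the ATPase that recycles ESCRT-III, at -0.02. Among the associated proteins, PDCD6IP, also called ALIX, was at 0.09 and 0.40, PTPN23 at 0.04 and 0.03, and the deubiquitinases STAMBP at -0.29 and 0.23 and USP8 at 0.19 and 0.16. In the model of only siNT and siHOXB-AS3, edgeR called 5 of the 30 genes higher and 1 lower, against 23.3% of all genes called in either direction. These were TSG101, CHMP2A, CHMP2B, PDCD6IP and IST1, and CHMP5 was the one called lower. IST1 was named after its values were seen.

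Among 24 tested genes of endosomes and lysosomes, 0 passed in either KD against siNT in the 6-library model (edgeR). An unadjusted p under 0.05 was reached by 2 in siHOXA-AS3 and 3 in siHOXB-AS3, beside 6.16% and 12.2% of all genes, and DESeq2 called 0 and 0. Between the KDs 1 passed, beside 1.57% of all genes, 6 had an unadjusted p under 0.05, beside 18.4%, and DESeq2 called 2, beside 6.14%. The gene that passed was LAMP1, a major protein of the lysosomal membrane. Its CPM was 519 and 529 in siNT, 678 and 646 in siHOXA-AS3, and 371 and 361 in siHOXB-AS3. LAMP1 was lower in siHOXB-AS3 than in siHOXA-AS3 (log2 fold change -0.85, SE 0.13, adjusted p = 0.0391, edgeR), with the siNT libraries between. In the model of only the KD libraries the adjusted p was 0.16. DESeq2 called LAMP1 lower (adjusted p = 0.00154) and NPC1 higher (log2 fold change 0.90 in edgeR, adjusted p = 0.00251 in DESeq2) between the KDs.

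The cholesterol transporter NPC1 had the highest value of this list in siHOXB-AS3, at 0.63 (SE 0.17, adjusted p = 0.20, edgeR), followed by the retromer sorting nexin SNX2 at 0.61, and the lysosomal channel MCOLN1 was at -0.30. In siHOXA-AS3 the highest were VPS33A, of the HOPS tethering complex, at 0.52 and the protease CTSD at 0.37. The lowest there were TFEB, a transcription factor of lysosomal genes, at -0.44 and the tether EEA1 at -0.33. The median over the list was 0.07 in siHOXA-AS3 and 0.02 in siHOXB-AS3. In the edgeR model of only siNT and siHOXB-AS3, NPC1, SNX2 and RAB7A were called higher and LAMP1 lower (adjusted p = 0.000165), which is 4 of 24 beside 23.3% of all genes. RAB7A was named after its values were seen.

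Of the TNF pathway, 8 of 10 genes were tested, and TNF itself had a mean FPKM of 0.035 and was too low to test. In each KD against siNT 0 of 8 passed in the 6-library model (edgeR). An unadjusted p under 0.05 was reached by 0 in siHOXA-AS3 and 2 in siHOXB-AS3, beside 6.16% and 12.2% of all genes, and DESeq2 called 0 and 1, beside 0.391% and 2.71%. Between the KDs 1 passed, beside 1.57% of all genes, 3 had an unadjusted p under 0.05, beside 18.4%, and DESeq2 called 1, beside 6.14%. BIRC3, an inhibitor of apoptosis and a well-known NF-kappaB target, had a CPM of 9.1 and 6.7 in siNT, 4.4 and 7.4 in siHOXA-AS3, and 24.9 and 32.3 in siHOXB-AS3. BIRC3 was higher in siHOXB-AS3 than in siHOXA-AS3 (log2 fold change 2.29, SE 0.33, adjusted p = 0.0373, edgeR), and in the model of only the KD libraries the adjusted p was 0.12. Against siNT its log2 fold change was 1.85 (SE 0.32, adjusted p = 0.10) in siHOXB-AS3 and -0.45 (SE 0.32, adjusted p = 0.96) in siHOXA-AS3. BIRC3 was called higher in siHOXB-AS3 than in siNT by DESeq2 (adjusted p = 8.33e-06). It was also called in the edgeR model of only siNT and siHOXB-AS3 (adjusted p = 1.41e-07) and with the GC trend removed (adjusted p = 0.000623, edgeR). Those edgeR fits called 23.3% and 15.3% of all genes. In siHOXA-AS3, the log2 fold change of BIRC3 was -0.86 without siHOXA-AS3 replicate 2 and -0.13 without siHOXA-AS3 replicate 1.

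The other TNF pathway genes had smaller fold changes. The related inhibitor BIRC2 was at 0.36 in siHOXA-AS3 and -0.41 in siHOXB-AS3, the kinase RIPK1 at -0.45 in siHOXB-AS3 and the adaptor TRAF2 at 0.46 in siHOXB-AS3. In siHOXA-AS3 the adaptor FADD was at -0.35 and the protease CASP8 at 0.28. The median over the list was -0.06 in siHOXA-AS3 and 0.11 in siHOXB-AS3. In the edgeR model of only siNT and siHOXB-AS3, BIRC3 was called higher and RIPK1 (adjusted p = 0.0176) and BIRC2 (adjusted p = 0.0243) lower, which is 3 of 8 beside 23.3% of all genes.

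**Figure D3:**
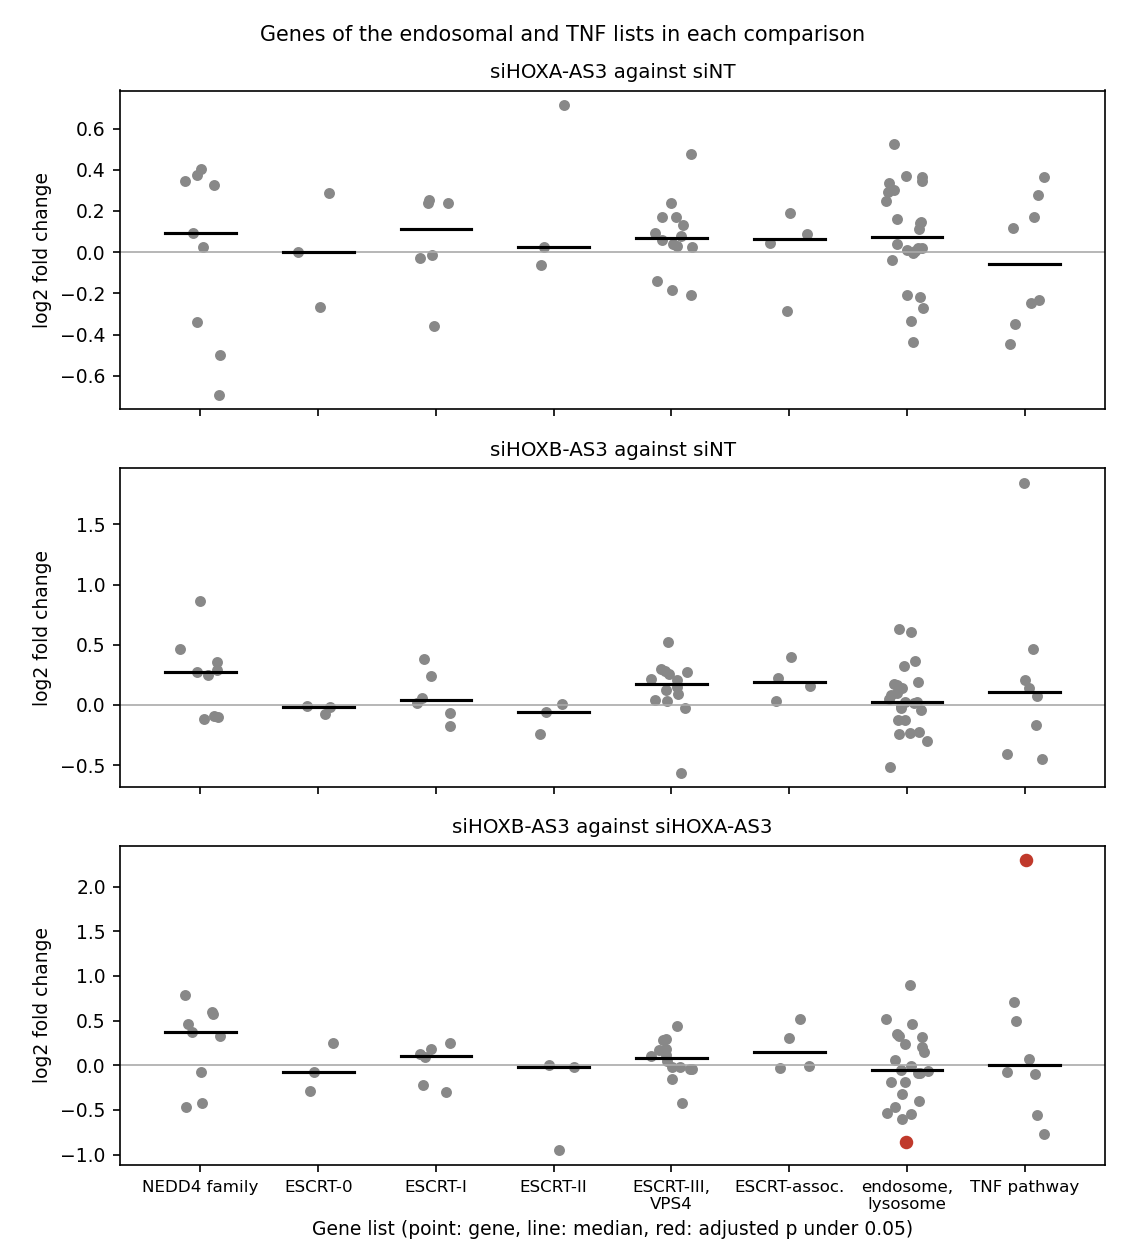
Log2 fold changes (vertical axes, a different range in each panel) of the tested genes of each list in the 3 comparisons, with a point for each gene and a line for each median. LITAF is not plotted, and the genes past an adjusted p of 0.05 are in red, namely LAMP1 at -0.85 and BIRC3 at 2.29 between the KDs.

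The profile of LITAF over the 6 libraries was compared with those of 10959 other genes at a mean FPKM of 1 or more. The measure was the root mean square difference between their log2 CPM values, each first set against its own siNT mean. The nearest gene was C9orf152, at 0.20, followed by the lncRNA LINC01978 at 0.21, the potassium channel subunit KCNE3 at 0.23, the goblet cell transcription factor SPDEF at 0.29 and the collagen-binding integrin subunit ITGA1 at 0.30. The median over all genes compared was 1.27. These genes were chosen for their likeness, so their values are a description. C9orf152 had log2 fold changes of -0.87 in siHOXA-AS3 and -1.64 in siHOXB-AS3, KCNE3 of -0.81 and -1.63, and ITGA1 of -0.88 and -1.62. SPDEF was split in siHOXA-AS3, where its libraries lay at -0.15 and -1.11 relative to siNT. The siHOXA-AS3 libraries of LINC01978 lay at -0.42 and -1.06, and those of ITGA1 at -1.22 and -0.59. LINC01978 had few counts, with 57 and 44 in siNT and 15 and 14 in siHOXB-AS3. The partners compared lay from 1.21 (HGS) to 1.80 (NEDD4), beside the median of 1.27 over all genes compared. LITAF was chosen for its fall, so these distances are a description and not a result about the partners.

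**Figure D4:**
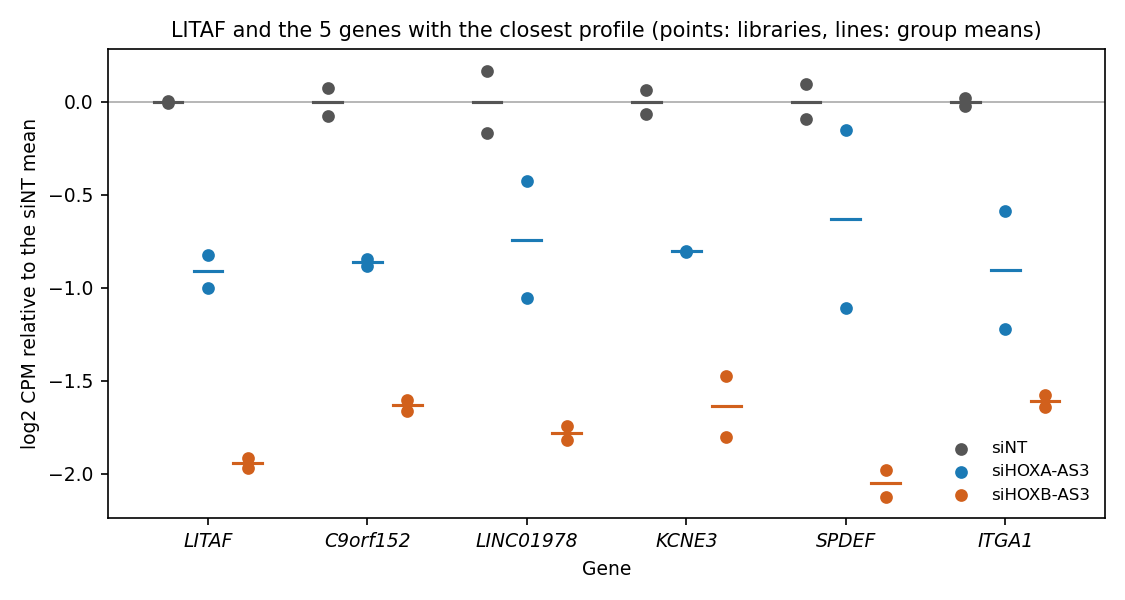
Difference in log2 CPM from the siNT mean (vertical axis) of LITAF and the 5 genes with the closest profile, with a point for each library and a line for each group mean. In each gene both siHOXB-AS3 libraries are the lowest, and the siHOXA-AS3 libraries lie between them and siNT.

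The genes next to LITAF on chromosome 16 are described beside it. LITAF was chosen for its fall, so nothing is read from its larger fold changes than theirs. On one side, the 3 nearest tested genes were SNN at 32.0 kb, TXNDC11 at 42.7 kb and ZC3H7A at 114.2 kb. Their log2 fold changes were 0.39, -0.00 and -0.11 in siHOXA-AS3 and -0.16, -0.11 and -0.06 in siHOXB-AS3. On the other side, RMI2 at 166.1 kb was at -0.66 (SE 0.22, adjusted p = 0.65, edgeR) in siHOXA-AS3 and 0.30 (SE 0.22, adjusted p = 0.64) in siHOXB-AS3, and CLEC16A and DEXI were at 0.13 and -0.27 in siHOXA-AS3 and at -0.04 and 0.04 in siHOXB-AS3. Over the 14 tested genes within 2000 kb, the values ran from -0.66 to 0.45 in siHOXA-AS3 and from -0.95 to 0.34 in siHOXB-AS3, with medians of -0.02 and -0.11. In the 6-library edgeR model 0 of these neighbours passed in any comparison. The model of only siNT and siHOXB-AS3 called RSL1D1 higher (log2 fold change 0.34 in the 6-library model, adjusted p = 0.0274, edgeR), beside 23.3% of all genes called. Between the KDs, DESeq2 (adjusted p = 0.0124) and edgeR with the GC trend removed (adjusted p = 0.00477) called RMI2 higher in siHOXB-AS3. Those fits called 6.14% and 26.2% of all genes. RSL1D1 was named after its values were seen.

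**Figure D5:**
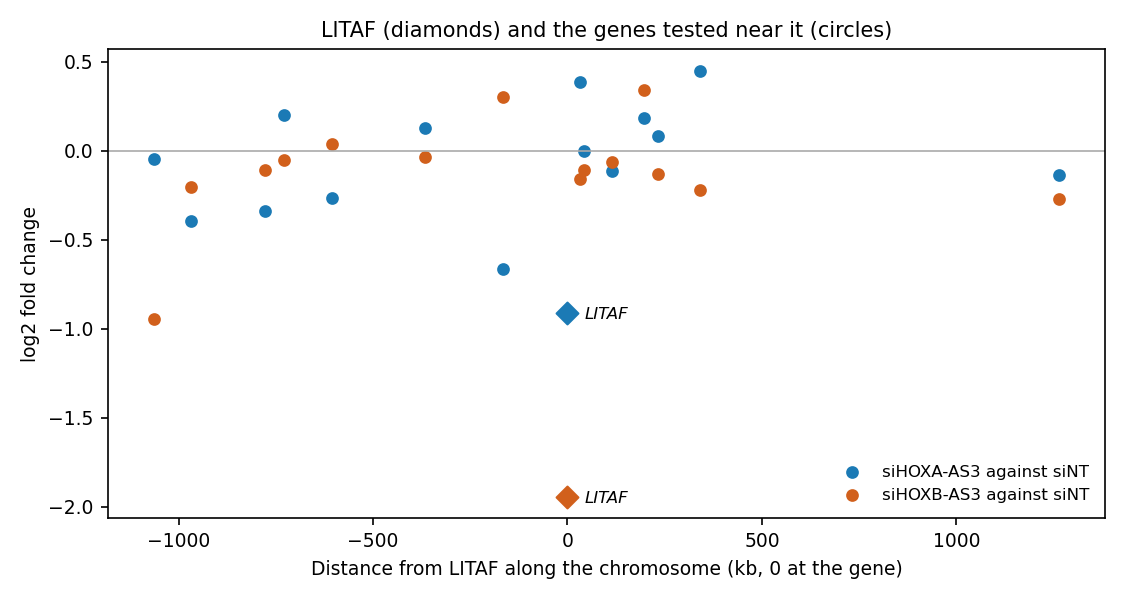
Log2 fold changes (vertical axis) of LITAF, drawn as diamonds at 0, and of the 14 tested genes within 2000 kb, drawn as circles at their distance from LITAF in kb. LITAF, which was chosen for its fall, lies at -0.91 and -1.94, and the nearest genes on either side lie between -0.66 and 0.39.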

How the data were processed

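Polyadenylated RNA of 6 HT-29 samples was made into libraries with the SENSE mRNA-Seq kit. The authors quantified RefSeq genes with RSEM and deposited, per library, expected counts (estimated fragments, not normalized) together with TPM and FPKM values, which they scaled by length and depth. Neither the aligner nor the version of RSEM nor the strand setting is given in the sources used here. TPM served only to repeat the levels.

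Expected counts were rounded and tested in R 4.3.3 with edgeR 4.0.16 (filterByExpr with a minimum count of 10, TMM, robust quasi-likelihood test, 1 model of all 6 libraries, Benjamini-Hochberg adjustment over 13034 genes, threshold 0.05). CPM are TMM-normalized, and differences per library use log2 CPM with a prior count of 2. Library totals of 15998518 to 26263938 set the counting error. Rows that join several genes held 6.02% to 6.62% of the counts, and rows without a symbol at most 0.106%. The libraries of a group differed by more than sampling noise (chi-square per degree of freedom 6.9 to 108).

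The members and gene lists were chosen with earlier results of these data known. MVB12A, CHMP3, VPS16 and TNFRSF1B share a row with another gene and were not used. Named genes were the members, the NEDD4 family, ESCRT-0 to ESCRT-II, the 2 lowest and 2 highest genes of each other list in each KD at a mean FPKM of at least 1, the 5 genes nearest to LITAF in profile and the 3 nearest on either side of it. Positions and 3′ UTRs came from GENCODE v29, and siRNA sequences from the study's supplement. Protein sequences were not used here.

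Alternatives were DESeq2 1.42.0, scaling by RLE or by library totals, keeping every gene with 1 count, keeping those with a mean FPKM of 1 or more, only the groups compared, a replicate block, limma-trend (limma 3.58.1) on log2(FPKM + 0.1) and each library left out. A trend on GC content and a crossed block were added after the data were seen.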

Additional observations from a re-analysis of the deposited data

Results flagged for a closer look

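The NEDD4 family, ESCRT, endosome and lysosome, and TNF lists held 9, 30, 24 and 8 tested genes. Of these, 2 genes differed between the KDs by the test of the difference itself, beside 1.57% of all genes tested. LAMP1 had a log2 fold change of -0.85 in siHOXB-AS3 against siHOXA-AS3 (adjusted p = 0.0391, edgeR's quasi-likelihood test), being 0.34 in siHOXA-AS3 and -0.52 in siHOXB-AS3 against siNT. BIRC3 had a log2 fold change of 2.29 (adjusted p = 0.0373, edgeR). Over the alternatives the adjusted p of LAMP1 ran from 4.37e-07 to 0.57 and that of BIRC3 from 4.94e-09 to 0.47, with the direction kept in each. Both lost the call in edgeR without siNT replicate 1 (adjusted p = 0.16 for LAMP1 and 0.11 for BIRC3), siNT replicate 2 (0.16 and 0.10), siHOXB-AS3 replicate 1 (0.43 and 0.28) or siHOXB-AS3 replicate 2 (0.57 and 0.47). They also lost it with the replicate block (0.12 and 0.084) and with only the KD libraries in the model (0.16 and 0.12), and LAMP1 with limma-trend (0.0514). Groups of 2 libraries are too small to look for single outlying libraries.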

How the results depend on the processing

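Each library was left out in turn, and the other settings were changed singly. Over the 16 alternatives of each comparison, LITAF was at -1.001 to -0.82 in siHOXA-AS3 and at -1.99 to -1.87 in siHOXB-AS3. Between the KDs it was at -1.12 to -0.94. LITAF was chosen for its fall in these libraries, so these ranges are a description and its kept sign is no support for the fall. Of 333 alternative values of the members, 288 kept direction and side of the threshold, 16 passed it only in the alternative, 7 of LITAF moved by more than the spread between replicates and 22 changed sign. The cause of these changes was not tested.

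The number of genes called in siHOXA-AS3, 0 in the 6-library model, was 49 with DESeq2, 24 with no filter, 1 with limma-trend and 425 with the GC trend removed, and 0 to 4031 with a library left out. In siHOXB-AS3, 8 genes were called, and 331 with DESeq2, 265 with no filter, 2995 with only the groups compared and 1997 with the GC trend removed, and 0 to 3035 with a library left out. Between the KDs, 204 genes were called, and 770 with DESeq2, 706 with no filter, 2 with only the groups compared, 93 with limma-trend and 3415 with the GC trend removed, and 0 to 5027 with a library left out. The counts above 2000 with a library left out were those without siHOXA-AS3 replicate 1 or siHOXA-AS3 replicate 2.

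Same-numbered libraries deviated in opposite directions between siNT and siHOXA-AS3 (r = -0.35 across 13034 genes) and between siNT and siHOXB-AS3 (r = -0.14), and together between siHOXA-AS3 and siHOXB-AS3 (r = 0.15). Since they did not deviate together in every pair of groups, the numbers are not taken to pair the samples. With the replicate number as a block, 0, 0 and 10 genes were called in the 3 comparisons. With the siNT numbers crossed in the block, 14, 225 and 758 genes were called.

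Changes of sign concerned values that lay near 0 with all libraries in the model, the farthest being -0.18 for HOXA-AS3 in siHOXB-AS3. Not all of the alternative values were near 0. HGS and WWOX in siHOXA-AS3, and ITCH, WWOX and HGS between the KDs, changed sign with the siHOXA-AS3 library left out. Their widest values, given below, came from those fits. HGS in siHOXA-AS3 was -0.0113 with library totals, -0.0311 with the replicate block, -0.0283 with the crossed block, -0.0488 with limma-trend, and -0.41 to 0.33 with a library left out. In siHOXB-AS3 HGS was 0.0949 with the GC trend removed and -0.22 to 0.0807 with a library left out. STAM in siHOXB-AS3 was 0.001 with DESeq2, 0.002 with no filter, 0.0297 with the GC trend removed, and -0.0457 to 0.0333 with a library left out. WWOX was 0.128 in siHOXA-AS3 with limma-trend and 0.0268 in siHOXB-AS3 with the GC trend removed, and -0.37 to 0.17 in siHOXA-AS3 with a library left out. Between the KDs with the GC trend removed, ITCH was 0.0061, WWOX 0.0422 and HGS 0.0615. With a library left out, these were -0.31 to 0.21, -0.26 to 0.27 and -0.40 to 0.34. HOXB-AS3 in siHOXA-AS3 was 0.0191 with the GC trend removed, and with a library left out -0.18 to 0.0323, and HOXA-AS3 in siHOXB-AS3 was -0.33 to 0.0229.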
